A study of Rattus norvegicus with 7 samples.

Results

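Type VI, type VIII and fibril-associated collagens are matrix proteins that link, cover or surround the fibres of connective tissue, and 7 of their genes, Col6a1, Col6a2, Col8a1, Col8a2, Col12a1, Col14a1 and Col16a1, were followed in rat synovium. They were taken by symbol from a table of 20660 genes, where each of the 7 was found on a single line, and all 7 passed the filter on low counts. The synovium, a soft lining of joints, was taken from 7 male SPF SD rats aged 3 months, with 1 RNA-seq library per rat. For 4 rats, the right knee had received 0.1 mL of MIA at a dose of 10 mg per kg, and tissue was taken 4 weeks later; the other 3 rats, numbered 2 to 4, were left untreated. The labels do not spell out MIA, which in knee osteoarthritis models usually means monosodium iodoacetate, which blocks glycolysis. The controls received no injection, so the agent and the injection itself cannot be told apart.

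Type VI collagen forms beaded filaments close to cell surfaces, around muscle fibres and beside basement membranes, and its alpha 1 and alpha 2 chains assemble with a further, larger chain. Type VIII collagen, made of 2 short chains, builds networks and is best known from the cornea and from vessel walls. Types XII, XIV and XVI belong to the fibril-associated collagens with interrupted triple helices (FACITs), which do not form fibrils themselves; types XII and XIV lie on the surface of type I collagen fibrils in tendon, ligament, fascia and joint capsule.

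All 7 genes were higher in MIA synovium than in control synovium, and in all 7 every MIA library lay above every control library. The size of the rise differed widely, from 2.08-fold for Col14a1 to 18.5-fold for Col12a1, with the other 5 genes between 6.68-fold and 8.99-fold. Among all 14054 genes tested, 21.3% were called higher (edgeR quasi-likelihood test, called where p adjusted by Benjamini-Hochberg over all tested genes was below 0.05), and 24.8% had every MIA library above every control library; 24.4% had every MIA library below every control library. The median log2 change of the 7 genes was 2.94, beside 0.07 for all tested genes.

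The libraries held 13870822 to 16261089 counts each, and a member gene had between 177 and 58874 counts in a library. Markers of skeletal muscle, 10 genes found of 12, took between 10.4% and 12.5% of the counts of a control library but between 0.0329% and 3.91% of those of an MIA library, lowest in MIA 2, and none of the 10 was at 0 throughout a group. Adipocyte markers (7 of 7 found) took 0.0822% to 0.140% and 0.0323% to 0.122%, and sublining fibroblast markers (6 of 6) 0.0434% to 0.0720% and 0.129% to 0.165%. Lining fibroblast markers were all counted in both groups, at 0.190% to 0.395% and 0.141% to 0.737%. The lubricin gene Prg4 ranged from 185 to 4842 CPM (counts relative to the library total, scaled by the trimmed mean of M values, TMM) among MIA libraries. In bulk tissue, more cells of a type and more RNA per cell cannot be told apart. Of all calls 52.1% were rises, against 78.1% with library totals, where the median over all tested genes was 0.51 on the log2 scale in place of 0.07.

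The stretches just upstream of the transcription start are shown for the 4 genes that have an entry among the RefSeq promoters of build GRCr8, to set the genes that rose to a like extent side by side. Each line gives 150 bases, 5′ to 3′ on the gene's strand, ending at the base before the start, and capitals mark matches on either strand to the motifs of the TATA box, TATAAA, the CCAAT box, the GC box, GGGCGG, or the AP-1 site, TGACTCA. The windows are chr20:11905540-11905689 for Col6a1, chr11:56246632-56246781 for Col8a1, chr5:143870619-143870768 for Col8a2 and chr5:147672946-147673095 for Col16a1, all on the plus strand.
Col6a1: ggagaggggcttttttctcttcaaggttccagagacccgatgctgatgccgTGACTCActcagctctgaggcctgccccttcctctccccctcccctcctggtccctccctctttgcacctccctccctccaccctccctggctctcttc
Col8a1: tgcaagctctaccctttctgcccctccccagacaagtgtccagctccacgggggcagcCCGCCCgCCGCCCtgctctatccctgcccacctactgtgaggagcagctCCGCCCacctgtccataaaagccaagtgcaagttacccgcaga
Col8a2: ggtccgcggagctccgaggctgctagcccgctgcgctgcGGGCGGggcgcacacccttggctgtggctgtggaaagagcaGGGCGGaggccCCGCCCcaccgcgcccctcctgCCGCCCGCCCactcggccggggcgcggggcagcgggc
Col16a1: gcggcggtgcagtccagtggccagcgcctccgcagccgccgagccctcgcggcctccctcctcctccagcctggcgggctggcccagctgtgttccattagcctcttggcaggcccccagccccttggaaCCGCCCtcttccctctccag
The windows of Col8a1, Col8a2 and Col16a1 held 3, 5 and 1 matches to GGGCGG, a motif found in 26.0% of the 33469 RefSeq promoter windows of this length. In Col8a2, 2 of the 5 matches share bases with each other, and no match overlapped a different motif. The Col6a1 window held no match to GGGCGG and 1 match to TGACTCA, 99 to 93 bases before the start, a motif found in 2.38% of windows. None of the 4 windows held TATAAA or CCAAT, which were found in 8.0% and 23.5% of windows. The deposited counts carry no measure of binding at these stretches.

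Col6a1 (ENSRNOG00000001249), which encodes the alpha 1 chain of type VI collagen, was at 401, 322 and 188 CPM in control 2, 3 and 4, and at 1848, 2687, 1189 and 2904 CPM in MIA 1, 2, 3 and 4. MIA 4 and MIA 2 were the highest and MIA 3 the lowest of the MIA libraries, and the lowest MIA library was still 2.96 times the highest control. The means were 303 ± 108 CPM (SD, n = 3) and 2157 ± 790.1 CPM (SD, n = 4), a 7.11-fold difference (log2 change 2.83 ± 0.47 SE, edgeR adjusted p = 0.00307). Col6a2 (ENSRNOG00000001254), encoding the alpha 2 chain, was at 487, 339.6 and 232 CPM in the controls and at 1997, 2664, 1666 and 3107 CPM in MIA 1 to 4. It had the same highest and lowest libraries as Col6a1 in both groups. Its control mean of 353 ± 128 CPM (SD, n = 3) compared with 2359 ± 649 CPM (SD, n = 4) in MIA, a 6.68-fold rise, with a log2 change of 2.74 ± 0.42 SE (edgeR adjusted p = 0.00242).

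The Col6a1 and Col6a2 transcripts kept close to a ratio of 1 per unit length in every library. Divided within each library as FPKM (counts corrected for gene length and library total), Col6a2 over Col6a1 was 1.01, 0.880 and 1.03 for the control rats in order of number, and 0.902, 0.827, 1.17 and 0.893 for MIA 1 to 4. The groups overlapped, and the log2 ratio was −0.04 ± 0.13 (SD, n = 3) in control and −0.09 ± 0.22 (SD, n = 4) in MIA, a difference of −0.05 (exact two-sided permutation p = 0.8, adjusted p = 0.83 over 6 ratios). MIA 3 was the only MIA library with more Col6a2 than Col6a1. On centred log2 CPM profiles over the 7 libraries, this pair also had the smallest root mean square difference of the 21 pairs among the 7 genes, 0.16 log2 units.

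Col6a5 and Col6a6, which encode further type VI chains, were far lower than Col6a1 and Col6a2. Col6a6 (ENSRNOG00000023007) was at 5.89, 5.63 and 3.69 CPM in the controls and at 6.95, 32.2, 20.8 and 24.7 CPM in MIA 1 to 4. MIA 1 lay close above the controls, the other MIA libraries well above them, and the gene rose 4.16-fold (log2 change 2.06 ± 0.49 SE, edgeR adjusted p = 0.0117). Col6a5 (ENSRNOG00000010663) was at 0.350, 0.792 and 0.409 CPM and at 4.07, 0.702, 7.53 and 1.64 CPM. Its groups overlapped through MIA 2, and its log2 change was 2.75 ± 0.85 SE (edgeR adjusted p = 0.0325). The Col6a6 call ended with limma-voom (adjusted p = 0.0594), with the muscle covariate (0.108) and without control 4 (0.0538). That of Col6a5 ended in 9 of its 17 alternatives, with adjusted p from 0.0518 to 0.143.

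**Figure D1:**
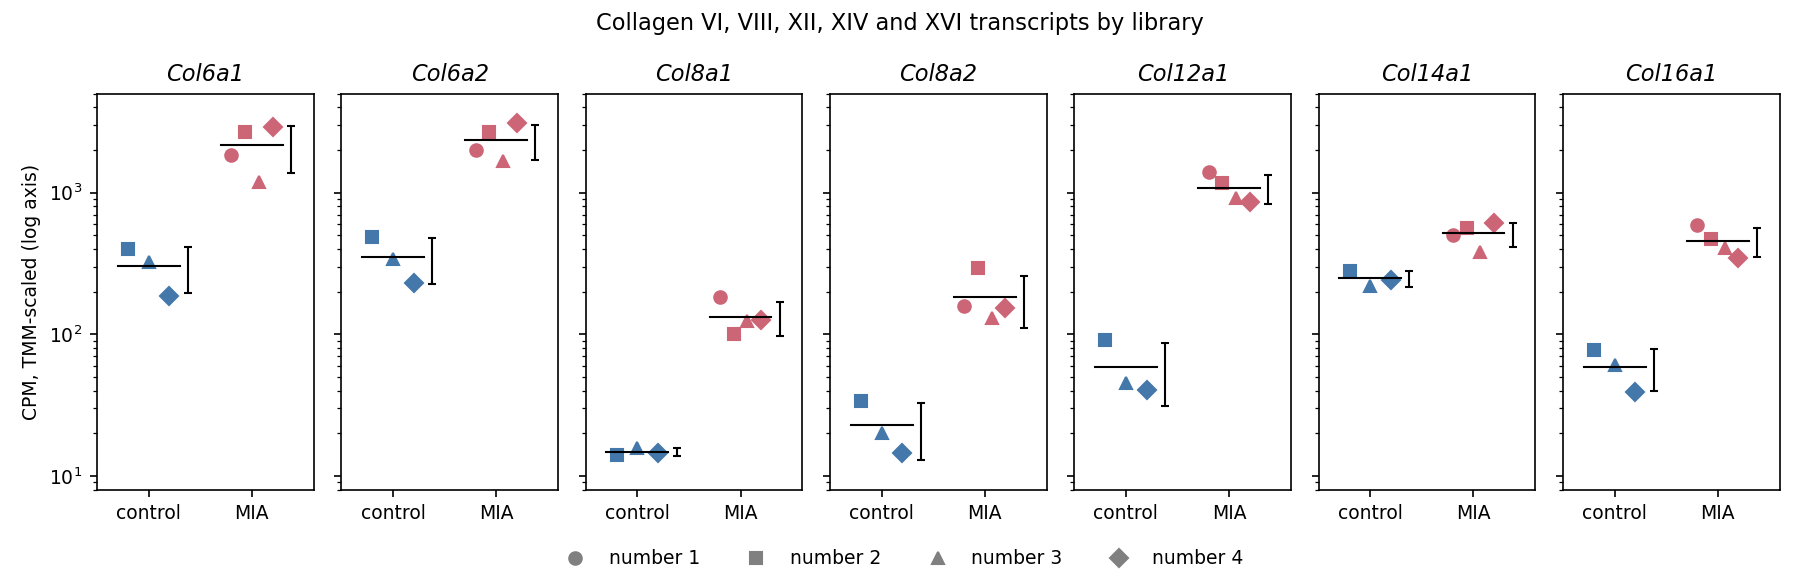
CPM on a log axis for each of the 7 genes in 3 control and 4 MIA libraries, with the marker shape giving the number of the rat in the labels, horizontal lines the group means and error bars the SD. Every MIA point lies above every control point in each panel, and the gap is narrowest for Col14a1 and widest for Col12a1.

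Both type VIII chains rose by similar amounts but ranked the libraries differently. Col8a1 (ENSRNOG00000039668), the alpha 1 chain, was at 14.1, 15.8 and 14.5 CPM in the controls and at 182, 100.1, 124 and 125 CPM in MIA 1 to 4. The controls were nearly level, with a coefficient of variation of 5.89%, the smallest of the 7 genes, and the lowest MIA library was 6.35 times the highest control. The rise was 8.99-fold, with means of 14.8 ± 0.871 CPM (SD, n = 3) and 133 ± 34.98 CPM (SD, n = 4) and an edgeR adjusted p = 0.000627. Col8a2 (ENSRNOG00000010841), the alpha 2 chain, was at 33.9, 20.2 and 14.6 CPM in the controls and at 159, 292, 131 and 154 CPM in MIA 1 to 4. MIA 2 was its highest library, whereas MIA 2 was the lowest MIA library for Col8a1. The means of Col8a2 were 22.9 ± 9.96 CPM (SD, n = 3) and 184 ± 73.4 CPM (SD, n = 4), an 8.03-fold rise (log2 change 3.01 ± 0.41 SE, edgeR adjusted p = 0.00167).

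The ratio of Col8a2 to Col8a1 in FPKM was 2.49, 1.32 and 1.04 for the control rats in order of number, and 0.902, 3.02, 1.09 and 1.27 for MIA 1 to 4. MIA 2 and control 2 stood highest and the groups overlapped. The log2 ratio was 0.59 ± 0.65 (SD, n = 3) in control and 0.48 ± 0.77 (SD, n = 4) in MIA. The difference of −0.11 was smaller than either SD (exact two-sided permutation p = 0.83, adjusted p = 0.83 over 6 ratios). It ran from −0.48 to 0.25 over left-out libraries, so its sign was not stable. With the level of the skeletal muscle list as a covariate the log2 change of Col8a2 was 2.22 ± 0.38 SE (adjusted p = 0.0134) and that of Col8a1 3.47 ± 0.29 SE (0.00279). MIA 2 was the library with the fewest muscle transcripts and the most Col8a2, and a link between the levels was not tested. The muscle level did not overlap between the groups, so the fit with this covariate cannot tell muscle content and group apart.

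Col12a1 (ENSRNOG00000058470), the FACIT known for tendon, ligament and loaded connective tissue, had the largest rise of the 7. It was at 90.4, 45.0 and 40.7 CPM in the controls and at 1399, 1171, 914 and 856 CPM in MIA 1 to 4. The MIA libraries were close together, and the lowest of them was 9.47 times the highest control. The means were 58.7 ± 27.6 CPM (SD, n = 3) and 1085 ± 249.98 CPM (SD, n = 4), an 18.5-fold difference (log2 change 4.21 ± 0.43 SE, edgeR adjusted p = 0.000902). Of the 14054 genes tested, 170 had a larger log2 change.

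Col14a1 (ENSRNOG00000026415), the other FACIT of fibril surfaces, had the smallest. It was at 282, 221 and 240.4 CPM in the controls and at 500.0, 566, 382 and 609.9 CPM in MIA 1 to 4. The groups did not overlap, but MIA 3 was only 1.36 times the highest control. The means were 248 ± 31.1 CPM (SD, n = 3) and 514 ± 99.0 CPM (SD, n = 4), a 2.08-fold rise (log2 change 1.06 ± 0.25 SE, edgeR adjusted p = 0.0113), and 2572 tested genes had a larger log2 change. The call ended without control 3 (0.98, adjusted p = 0.0586), without control 4 (1.03, adjusted p = 0.0517) and with the muscle covariate (0.88 ± 0.32 SE, adjusted p = 0.0854).

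Within libraries, Col12a1 and Col14a1 had unequal transcript levels in the controls and nearly equal ones in MIA. In FPKM, Col14a1 was 6.13, 9.66 and 11.6 times as high as Col12a1 in control 2, 3 and 4, and 0.703, 0.951, 0.823 and 1.40 times as high in MIA 1 to 4. The groups were well apart: the log2 ratio of Col12a1 to Col14a1 was −3.14 ± 0.47 (SD, n = 3) in control and 0.09 ± 0.43 (SD, n = 4) in MIA, a difference of 3.24. The exact permutation p (two-sided) was 0.0286, the lowest value possible with 35 assignments, and all 4 MIA libraries lay above all 3 controls. After Benjamini-Hochberg adjustment over the 6 ratios the p was 0.0857, so the difference did not pass the correction. At the lowest possible p a ratio passes only if most of the 6 ratios share that value, so the correction could not decide here. Scaling between libraries does not enter this ratio.

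Col16a1 (ENSRNOG00000031475), a FACIT found in skin and cartilage, was at 77.5, 61.1 and 39.0 CPM in the controls and at 591, 472, 406 and 347 CPM in MIA 1 to 4. MIA 1 was highest and MIA 4 lowest, as for Col12a1, and the lowest MIA library was 4.48 times the highest control. The rise was 7.67-fold, between means of 59.2 ± 19.3 CPM (SD, n = 3) and 454 ± 105 CPM (SD, n = 4), with a log2 change of 2.94 ± 0.33 SE (edgeR adjusted p = 0.00104).

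**Figure D2:**
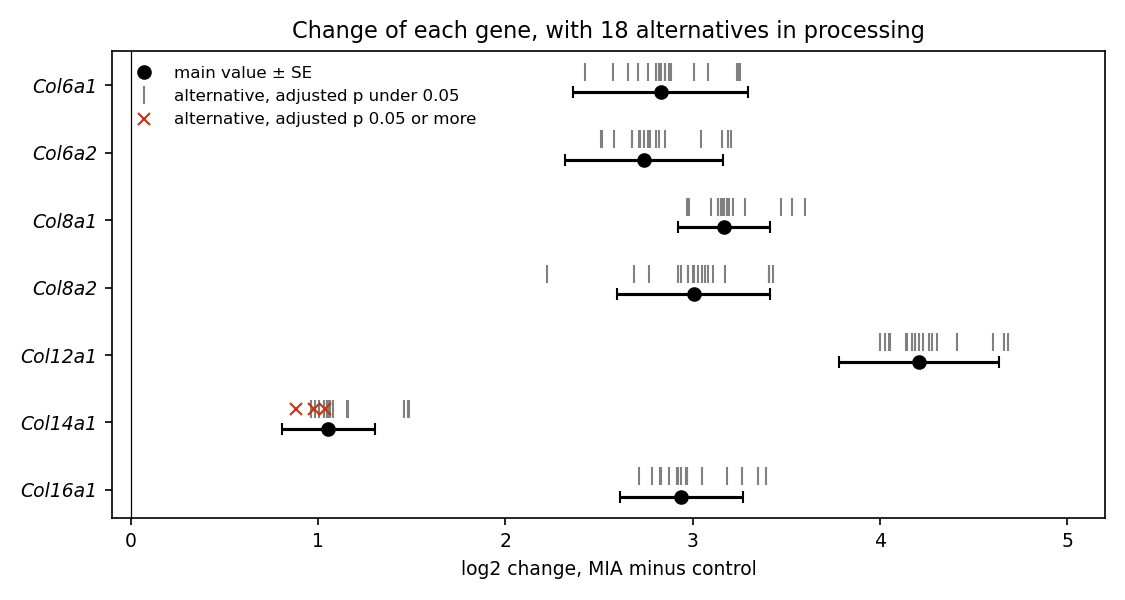
Log2 change of each of the 7 genes, MIA minus control, as the main edgeR value with its SE (black) and under 18 alternatives in processing (grey ticks, or red crosses where the adjusted p was 0.05 or more). All values are above 0; crosses occur for Col14a1 alone, at 0.88, 0.98 and 1.03.

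The MIA rats did not rank alike across the 7 genes. MIA 4 had the most Col6a1, Col6a2 and Col14a1 but the least Col12a1 and Col16a1, MIA 1 had the most Col8a1, Col12a1 and Col16a1, and MIA 2 the most Col8a2. MIA 3 was the lowest for Col6a1, Col6a2, Col8a2 and Col14a1. Among controls, control 2 was the highest for every gene except Col8a1, and control 4 was the lowest for Col6a1, Col6a2, Col8a2, Col12a1 and Col16a1. The highest MIA library was between 1.596 and 2.44 times the lowest, for Col14a1 and Col6a1.

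Per unit length, the order of the genes changed between the groups in its middle. In control synovium Col6a1 (83.9 ± 34.3 FPKM, SD, n = 3) and Col6a2 (81.5 ± 34.8 FPKM) were highest with overlapping ranges, Col14a1 followed apart from both neighbours at 38.8 ± 7.31 FPKM, and Col16a1 was at 9.61 ± 3.69 FPKM. Col12a1 at 4.75 ± 2.56, Col8a2 at 4.67 ± 2.34 and Col8a1 at 2.86 ± 0.162 FPKM had ranges that overlapped from neighbour to neighbour, as did those of Col16a1 and Col12a1. In MIA synovium Col6a1 (793 ± 289 FPKM, SD, n = 4) and Col6a2 (726 ± 203 FPKM) again led with overlapping ranges. Col12a1 (116 ± 19.9 FPKM), Col14a1 (108 ± 19.8 FPKM) and Col16a1 (97.9 ± 17.4 FPKM) came next with overlapping ranges, and Col8a2 (49.6 ± 18.6 FPKM) and Col8a1 (34.7 ± 7.77 FPKM) followed, each also overlapping the gene before it. Despite the overlap, Col16a1 was above Col8a2 in each of the 4 MIA libraries. In each of the 3 controls Col16a1 was above Col12a1, and Col8a2 above Col8a1. By group means Col12a1 thus moved from the fifth place to the third. It was above Col8a2 in 2 of 3 controls and above Col14a1 in 3 of 4 MIA libraries.

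Set against Col1a1, the main chain of type I collagen fibrils, Col12a1 had ratios that overlapped between the groups. Col14a1 had a lower ratio in every MIA library than in any control. Col1a1 itself was at 1912, 1417 and 629 CPM in the controls and at 35152, 40261, 14373 and 30135 CPM in MIA 1 to 4, with a log2 change of 4.51 ± 0.80 SE (edgeR adjusted p = 0.00387). The log2 FPKM ratio of Col12a1 to Col1a1 was −5.31 ± 0.52 (SD, n = 3) in control and −5.58 ± 0.54 (SD, n = 4) in MIA. The groups overlapped and differed by −0.27 (exact two-sided permutation p = 0.429, adjusted p = 0.643). That difference was −0.57 with 1 added to both FPKM values, and −0.54 to −0.03 over left-out libraries. For Col14a1 the log2 ratio to Col1a1 was −2.65, −2.57 and −1.27 in the controls and −6.02, −6.04, −5.12 and −5.51 in MIA 1 to 4, a gap of −3.51 with no overlap (exact p = 0.0286, adjusted p = 0.0857). For Col16a1 it was −4.24 ± 0.33 (SD, n = 3) and −5.82 ± 0.61 (SD, n = 4), a gap of −1.58 with no overlap (exact p = 0.0571, adjusted p = 0.114). None of the 6 ratios passed the adjustment, which even fully separated groups could not pass here unless most of the ratios had the lowest possible p.

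**Figure D3:**
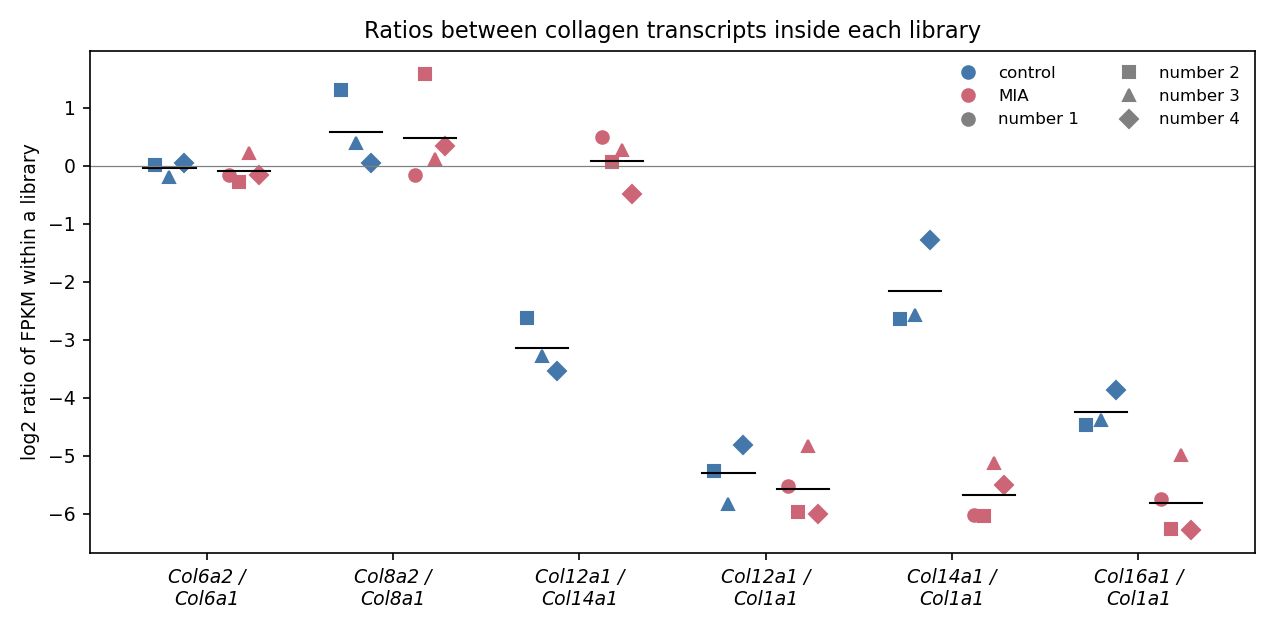
Log2 ratio of FPKM within each library for 6 pairs of collagen genes, with control libraries in blue, MIA libraries in red, marker shapes for the number in the labels and lines for group means. Groups overlap for Col6a2/Col6a1, Col8a2/Col8a1 and Col12a1/Col1a1 and are apart for the other ratios, with Col12a1/Col14a1 higher and Col14a1/Col1a1 and Col16a1/Col1a1 lower in MIA.

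As part of all collagen transcripts the 7 genes took a smaller share in MIA synovium although each of them rose. Over 43 collagen genes, a sum that does not include Col6a3, the 7 took 22.6%, 20.5% and 24.5% of the summed FPKM of control 2, 3 and 4, against 9.59%, 12.98%, 13.9% and 13.6% for MIA 1 to 4. No MIA library reached the controls. Col6a1 and Col6a2 together went from 16.2% ± 0.790 (SD, n = 3) to 9.79% ± 1.94 (SD, n = 4), and Col14a1 from 4.15% ± 1.49 to 0.715% ± 0.123. The share of Col12a1 was 0.552%, 0.332% and 0.505% in the controls and 0.812%, 0.720%, 1.06% and 0.522% in MIA 1 to 4; its mean was higher in MIA, and the groups overlapped through MIA 4. Col1a1 took 18.2% ± 3.60 (SD, n = 3) and 36.5% ± 6.38 (SD, n = 4) of the same sum. Col1a2, the partner chain of Col1a1 in type I collagen, ranged only from 0.559% to 3.81% (control) and from 0.648% to 1.78% (MIA); whether its counts are complete was not tested, and the shares rest on the sum as deposited. Col3a1, a fibrillar collagen of soft tissue, ranged from 26.0% to 33.1% and from 29.3% to 40.6%.

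**Figure D4:**
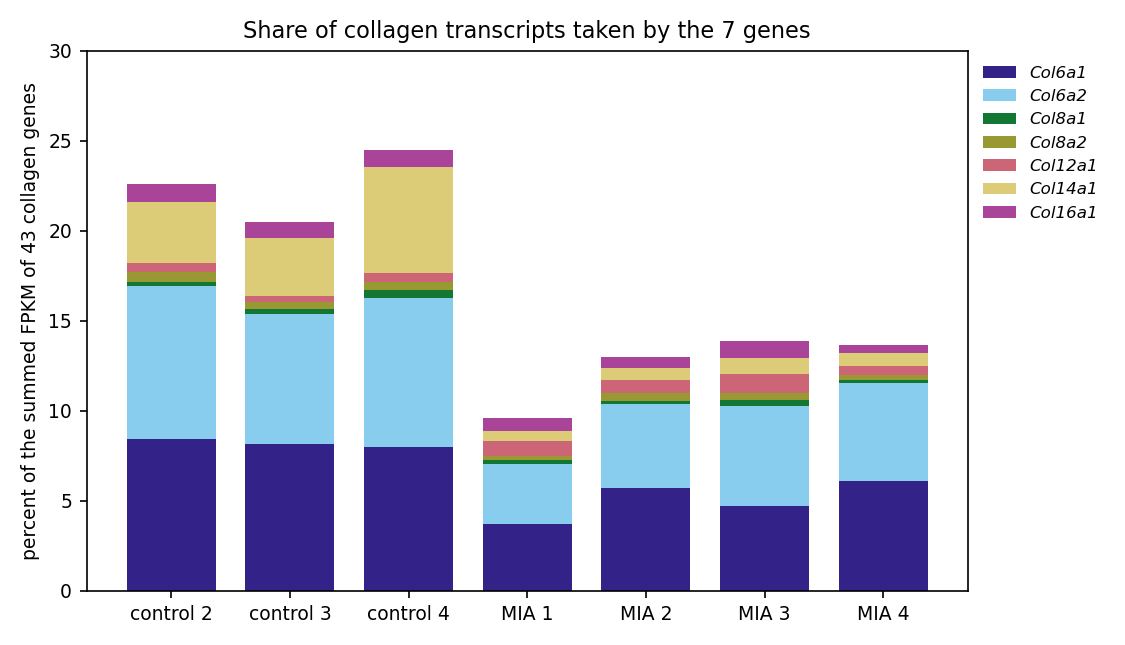
Percent of the summed FPKM of 43 collagen genes taken by each of the 7 genes, stacked for each library. Control stacks reach 20.5% to 24.5%, MIA stacks 9.59% to 13.9%, and the segment of Col14a1 shrinks most.

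The genes whose profile over the 7 libraries came closest to each member were found by the root mean square difference of centred log2 CPM, among 11728 other genes. Closest to both Col6a1 and Col6a2 were Creb3l1, a transcription factor anchored in the endoplasmic reticulum (0.29 and 0.24 log2 units), and Tmem45a, a membrane protein gene (0.29 and 0.27). Col8a1 was nearest to Col5a2, a minor fibrillar collagen chain (0.23), and to Ror2, a receptor for Wnt5a (0.24). Col8a2 had Fcrlb, an Fc receptor-like gene, at 0.16 and Cgref1 at 0.25; Fcrlb was at only 0.0467 CPM in control and 1.18 CPM in MIA, so that its distance rests on the prior count of 2 in the log2 CPM and shows no likeness. Col12a1 was nearest to Lox, the collagen and elastin cross-linking enzyme (0.34), and C1qtnf6, a secreted C1q and TNF related protein (0.34). Col16a1 was nearest to the cyclophilin gene Ppic (0.18) and the carbonic anhydrase gene Car13 (0.18). Col14a1 had the closest neighbour of the 7 genes, Ripk1, a kinase of cell death signalling, at 0.07 log2 units. Since the profiles hold 7 points in separated groups, a gene with a like change between the groups comes out close, Fcrlb excepted.

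Genes that make, bind or cut these collagens were described by lists. For each list the counts below come from the same edgeR fit, in which 21.3% of all tested genes were called higher and 19.6% lower. Of 8 tested genes of other type VI, FACIT and short-chain collagens only Col6a5 and Col6a6 rose, with a list median log2 change of 0.84; the cartilage FACIT genes Col9a1 (−0.44 ± 0.92 SE), Col9a2 (0.50 ± 0.43) and Col9a3 (2.62 ± 1.45) did not pass. The count was 1 in 5 of 11 alternatives and 0 with limma-voom. Of 11 fibrillar collagen genes 9 rose and 1, Col24a1, fell (−1.11 ± 0.25 SE, adjusted p = 0.0095), at a median of 3.41. Col27a1 (2.67 ± 0.20 SE, 7.99 ± 1.33 to 50.8 ± 7.41 CPM) and Col5a3 (3.38 ± 0.32 SE, 74.8 ± 9.84 to 781 ± 222 CPM) had the smallest p. Of 7 basement membrane collagen genes 4 rose and 1, Col4a4, fell (−0.67 ± 0.22 SE, adjusted p = 0.0404), at a median of 1.33; Col18a1, the source of endostatin, was 4.34-fold higher and Col4a2 3.19-fold. The genes that fell were chosen after their values were seen.

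Among 11 tested collagen receptor genes 6 rose and 1 fell, at a median of 1.20. Itga11, the integrin alpha 11 chain of fibroblasts that binds fibrillar collagen, was 3.57-fold higher (1.84 ± 0.26 SE, adjusted p = 0.00185). Antxr1, an anthrax toxin receptor that binds type VI collagen, rose 4.57-fold, from 39.9 ± 3.91 to 183 ± 66.3 CPM (2.19 ± 0.32 SE, adjusted p = 0.00209). Antxr2, the other anthrax toxin receptor gene of the list, was at 0.31 ± 0.24 SE and did not pass (edgeR adjusted p = 0.317). Cspg4, the proteoglycan NG2 and another type VI collagen receptor, was at 0.64 ± 0.51 SE and did not pass (adjusted p = 0.34). The collagen receptor kinase gene Ddr1 fell (−1.66 ± 0.40 SE, adjusted p = 0.0125). Antxr2, Cspg4 and Ddr1 were chosen after their values were seen. With the muscle covariate 3 receptor genes rose.

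Of 12 tested matrix partners 7 rose and 5 did not pass, at a median of 2.01. Lum, which encodes the fibril-binding proteoglycan lumican, was 25.8-fold higher, from 103 ± 21.3 to 2651 ± 526 CPM (4.69 ± 0.39 SE), and Tnc, which encodes tenascin-C, 12.4-fold (3.63 ± 0.42 SE). Bgn, encoding biglycan, which binds type VI collagen, rose (2.45 ± 0.50 SE, adjusted p = 0.00659), while its relative Dcn, known to bind both type VI and type XIV collagen, was at 0.16 ± 0.42 SE and did not pass (adjusted p = 0.788); both were chosen after their values were seen. Of 15 folding and modification genes 13 rose, at a median of 1.54, and the smallest p belonged to the chaperone gene Fkbp10 (2.77 ± 0.29 SE, edgeR adjusted p = 0.000948) and to Crtap, a subunit of the prolyl 3-hydroxylase complex, which the table lists as Crtapl1 (1.63 ± 0.22 SE, 0.00176). Of 13 collagen protease genes 12 rose, at a median of 2.78, and the smallest p belonged to the membrane-type metalloprotease gene Mmp14 (84.9 ± 9.75 to 916 ± 192 CPM, 3.43 ± 0.29 SE, edgeR adjusted p = 0.000735) and the procollagen N-propeptidase gene Adamts14 (2.78 ± 0.25 SE, 0.000828). The gelatinase gene Mmp9 and the collagenase gene Mmp13, chosen after their values were seen, had larger log2 changes (7.15 ± 1.20 SE and 7.15 ± 1.54 SE). Their control means were only 0.604 and 1.27 CPM. Among MIA libraries Mmp9 ranged from 12.0 to 207 CPM and Mmp13 from 26.5 to 574 CPM, highest in MIA 3.

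Of 10 TGF-beta pathway genes 3 rose and 1, the ligand gene Tgfb2, fell (−0.53 ± 0.19 SE, adjusted p = 0.0496; chosen after its value was seen), at a median of 0.58. The ligand gene Tgfb1 was 2.18-fold higher (1.13 ± 0.28 SE, edgeR adjusted p = 0.014). It lost the call with the muscle covariate (adjusted p = 0.192) and without control 3 (0.0608) or control 4 (0.0651). In this list 6 genes rose with library totals and 0 did with the muscle covariate.

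**Figure D5:**
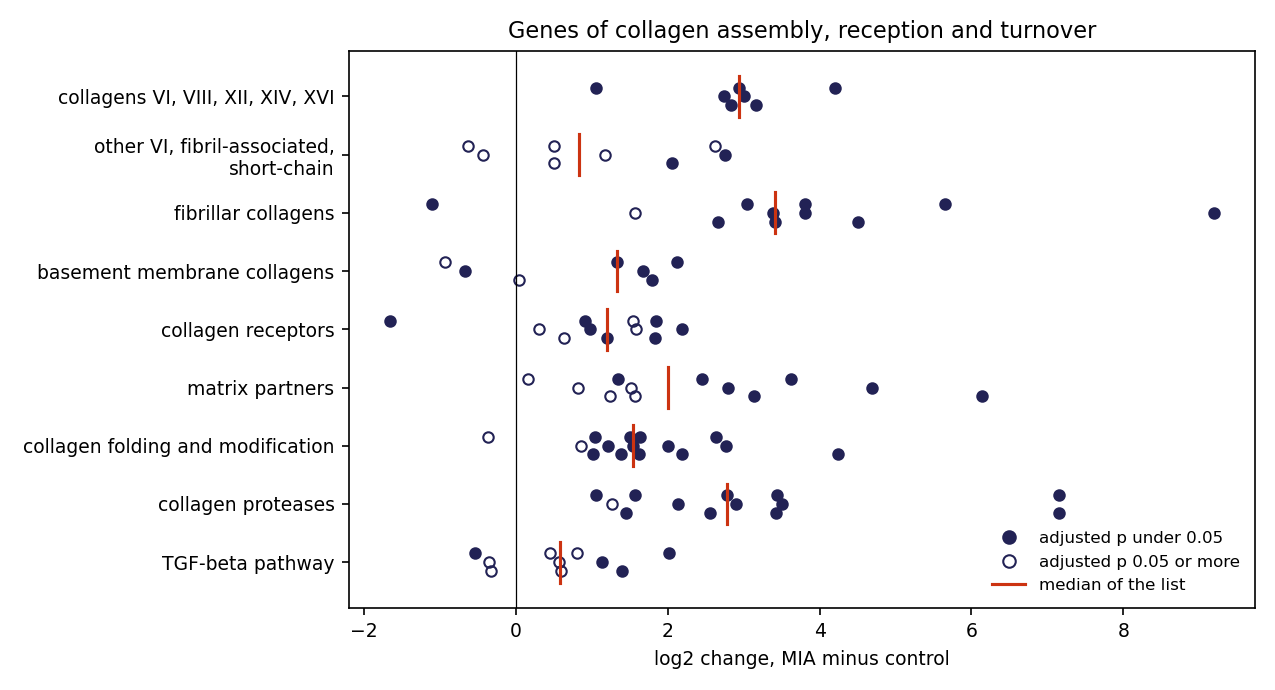
Log2 change, MIA minus control, of each tested gene of the 7 collagens and of 8 lists, with filled points at an adjusted p under 0.05, open points at 0.05 or more and red lines at list medians. The 7 collagens lie between 1.06 and 4.21, around a median of 2.94, and the TGF-beta pathway list has a median of 0.58.

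Markers of other cell types that could carry these transcripts moved in different directions. Of 6 sublining fibroblast markers 4 rose, with the surface protein gene Thy1 at 3.46 ± 0.40 SE (28.1 ± 12.2 to 310.3 ± 83.6 CPM), and of 5 lining markers the protease gene Htra1 rose (2.15 ± 0.32 SE) and the chloride channel gene Clic5 fell (−2.29 ± 0.44 SE, chosen after its values were seen). Of 5 tenocyte markers 2 rose, among them tenomodulin, Tnmd (2.52 ± 0.80 SE, adjusted p = 0.0356), which was at 539 CPM in MIA 2 and 71.0 to 123 CPM in the other MIA libraries and lost its call without any 1 control (adjusted p 0.0636 to 0.12) and with the muscle covariate (0.607). Chondrocyte markers rose in 3 of 5 cases, with the aggrecan gene Acan from 1.37 ± 1.06 to 295 ± 165 CPM, osteoblast markers in 2 of 4, with Ibsp at 3.28 ± 0.60 SE, and macrophage markers in 6 of 6, with Cd14 at 2.13 ± 0.33 SE. The chondrocyte count was 0 where at least 10 counts were required in every library, a filter that left Acan untested. The macrophage count was 2 with the muscle covariate. The tenocyte count was 0 with that covariate and without any 1 control, and the osteoblast count was 1 in 5 of 11 alternatives. Rgs5 was the mural cell marker of 5 that rose (1.12 ± 0.23 SE). Of 4 endothelial and 4 blood markers 0 passed in edgeR, DESeq2 or limma-voom, and 0 had an unadjusted p under 0.05 (Vwf 0.48 ± 0.38 SE, Hbb 0.55 ± 0.87 SE).

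Of 10 skeletal muscle markers 1 fell, Tnnt3 (11722 ± 1627 to 1327 ± 850.3 CPM), with a list median of −3.00 and 7 at an unadjusted p under 0.05 (6 called by DESeq2). Of 7 adipocyte markers 1 fell, Fabp4 (−1.25 ± 0.40 SE, adjusted p = 0.0375), with 3 called by DESeq2. Both Tnnt3 and Fabp4 lost their calls when single libraries were left out. The share of muscle transcripts was lower in every MIA library than in every control, and the collagen changes were also fitted with the muscle level as a covariate: Col6a1 was then at 2.43 ± 0.55 SE (adjusted p = 0.0238), Col6a2 at 2.52 ± 0.49 SE (0.0165), Col12a1 at 4.03 ± 0.50 SE (0.00707) and Col16a1 at 2.83 ± 0.42 SE (0.0103). The muscle level did not overlap between the groups, at 12.96 to 13.22 log2 CPM in controls and 4.08 to 10.98 in MIA libraries. The fit with this covariate therefore cannot tell muscle content and group apart. The part of muscle, fibroblast, tenocyte and chondrocyte content in the collagen changes was not tested.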

How the data were processed

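RNA was sequenced from synovium of 3 control and 4 MIA rats, 1 library each from 1.5 µg of RNA. Per the submitters' processing notes, HISAT2, HTSeq 0.11.2, DESeq2 1.26.0 and build Rnor_6.0 were used, with no role stated; the strand setting was not given in the sources used here. The deposited counts, per the file headers, are whole numbers per gene. The deposited FPKM values, recomputed, equal the count over gene length and library total, with 1 length per gene in 18593 of 18593 genes (tolerance 1e-09).

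Counts were tested in R 4.3.3 with edgeR 4.0.16 (filterByExpr, TMM factors, quasi-likelihood F test, Benjamini-Hochberg adjustment over 14054 genes, called under 0.05). SE was taken from the log2 change and its F value (size of the change over √F). The common biological coefficient of variation was 36.7%. Within-library ratios used an exact two-sided permutation over 35 assignments. A ratio to Col6a3 and sequences of the other 3 promoters were not analysed here. The edgeR test was also run on simulated counts in which few genes changed, in both directions. That run does not check the scaling between groups that differ as widely as these.

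The 7 genes and all lists were chosen with earlier results of these data known. Of 161 list genes 149 were matched by symbol and 3 by synonym. Named were the 7 genes, the 2 genes of smallest p of each collagen list and the first of each cell type list, and the 2 nearest profiles of each gene (mean of at least 1 FPKM in a group). Alternatives were other scalings, DESeq2 1.42.0, limma 3.58.1 (voom, log2(FPKM + 1), log2(FPKM + 0.1)), other filters, a replicate block, a muscle covariate and leaving out each library. Nothing in the labels says that the samples share a litter or a day. The edgeR p-values set the difference between the groups against the spread within the groups of these 7 rats. Some genes that this rule names are not reported here.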

Additional observations from a re-analysis of the deposited data

Results flagged for a closer look

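A library was taken to stand apart where its gap to the nearest of the other 3 MIA libraries, over the range of all 4, passed the critical value of Dixon's test. None of the 7 collagen genes or their ratios passed it, but Col8a2 came close, with 292 CPM in MIA 2 against 131 to 159 CPM. Among the other values tested, 7 passed, where chance flags about 1 group in 20 and 65 were tested. MIA 2 was at 1203 CPM of Mmp14 against 795 to 841 in the other MIA libraries, at 1381 CPM of Htra1 against 804 to 845, at 539 CPM of Tnmd against 71.0 to 123, and at 2.04 CPM of Fcrlb against 0.812 to 1.02. Col3a1 took 29.3% of the summed collagen FPKM in MIA 2 against 39.4% to 40.6%. MIA 1 was at 1084 CPM of Lox against 406 to 449.9, and at 37.2 CPM of Ror2 against 16.0 to 18.9.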

How the results depend on the processing

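Each of the 7 genes kept its direction under all 18 alternatives, and 123 of 126 values stayed called; the 3 that did not are those of Col14a1, at 0.88 with the muscle covariate (adjusted p = 0.0854) and at 0.98 and 1.03 without control 3 and control 4, within a range of 0.96 to 1.16 over left-out libraries. With library totals Col12a1 was at 4.61 and Col14a1 at 1.48, beside a median of all genes of 0.51; Col8a2 moved most with the muscle covariate, from 3.01 to 2.22. The median of all genes was 0.36 and 0.47 with limma on log2(FPKM + 1) and log2(FPKM + 0.1). Genes called higher and lower numbered 2998 and 2753, and 5259 and 1477 with library totals, 4959 and 1608 with log2(FPKM + 1), 5140 and 1558 with log2(FPKM + 0.1), and 1569 and 1263 with the muscle covariate; rises made up 75.5% and 76.7% of the calls with the FPKM fits. Leaving out a library gave 1679 to 2950 higher and 1768 to 2796 lower. The cause of these shifts was not tested. Since the muscle level did not overlap between the groups, the fit with that covariate cannot separate muscle content from group.

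Other type VI, FACIT and short-chain genes that rose numbered 2, but 0 with limma-voom (1 at an unadjusted p under 0.05), 1 with either FPKM fit, with at least 10 counts in every library (where fewer genes are tested), with the replicate block and with the muscle covariate, and 0 to 2 without a library. TGF-beta genes that rose numbered 3, but 6 with library totals and either FPKM fit, 5 with DESeq2, 1 with the replicate block, 0 with the muscle covariate, and 1 to 4 without a library. With the muscle covariate 3 receptor genes rose. Hbb, not called in any fit, turned from 0.55 to −0.00366 with limma-voom, −0.61 with the replicate block, −0.41 with the muscle covariate and −0.0779 without MIA 1, within −0.0779 to 0.97 over left-out libraries.

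The replicate block used the 6 libraries numbered 2 to 4. It left 2205 genes higher and 2244 lower, all 7 collagens called (Col14a1 at an adjusted p of 0.0366) and 2 basement membrane collagens higher in place of 4. Deviations of same-numbered libraries correlated at 0.27, 0.0958 and 0.03 for numbers 2, 3 and 4; controls 2 and 3 correlated best with their own number and control 4 with MIA 3 (0.18). The labels state no pairing and not every pair was over 0.1, so the numbers were not used to pair the libraries. With 3 controls and 4 MIA rats the exact permutation test of a ratio cannot go below p = 0.0286.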
